A study of Mus musculus with 6 samples.

Results

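*Nqo1*, *Acsm4*, *Cd55*, *Socs2* and *Umodl1* are 5 of the 24564 genes listed in single-cell RNA-seq libraries of the mouse main olfactory epithelium. They were chosen because earlier results of these data gave them as higher in neurons with dorsal olfactory receptors (ORs) of the control libraries, so their dorsal and ventral levels in controls are given as a description with no test. What was measured beyond that choice is where along the neuron lineage they appear, which other cells hold them, whether they are found in the same neurons, and whether they go with the chosen OR in mice of other genotypes. All 5 passed the filter on low counts in every comparison.

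Each olfactory sensory neuron (OSN) expresses a single OR gene, and ORs are used in overlapping zones that run from the dorsal to the ventral epithelium. Class I ORs, an evolutionarily older family, are used mainly in the dorsal zone, where class II ORs are used as well. NQO1, a quinone reductase of the antioxidant response, is a classical marker of dorsal OSNs and their axons. ACSM4 is an acyl-CoA synthetase of medium-chain fatty acids that is known from the dorsal epithelium. CD55 (decay-accelerating factor) is a membrane inhibitor of complement, SOCS2 is a feedback inhibitor of cytokine and growth hormone signalling, and UMODL1 (olfactorin) is a zona pellucida domain protein of OSNs.

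The libraries came from 2 swap mice, 2 controls, 1 *gg8tTA;tetOP2* mouse (*tetOP2*) and 1 *gg8tTA* mouse. Swap mice carried *Cbx*\*/\* and a Cre driver of the neural lineage. In that allele the coding sequence of *Cbx1*, which makes the heterochromatin protein HP1β, gives way to that of *Cbx5* (HP1α) once Cre has acted. Control replicate 1 is labelled WT at *Cbx* with Cre and control replicate 2 *Cbx*\*/\* without Cre, so the 2 controls do not share a genotype. In the *tetOP2* mouse a tetracycline transactivator made from the *gg8* (*Gng8*) promoter of immature OSNs drives a transgene of *Olfr17* (P2) followed by ires-GFP, and the *gg8tTA* mouse has the driver without the transgene. Ages are not given in the sources used here. The labelled cell type is OSN, whereas the libraries also held basal, sustentacular, glandular, microvillar, glial and blood cells.

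A total of 32005196 to 63277934 UMIs (unique molecular identifiers, counted transcripts) were deposited per library, and 2563 to 5091 cells per library were kept. Mature OSNs numbered 446 and 910 in swap replicates 1 and 2, 879 and 1138 in controls 1 and 2, 497 in *tetOP2* and 526 in *gg8tTA*, with median depths of 11152 to 12555.5 UMIs. *Cbx1* in mature OSNs stood at 1.00 and 3.43 CPM (UMIs scaled to a common total per library and cell class) in swap libraries against 77.9 and 152 in control ones, and *Cbx5* at 74.5 and 88.7 against 20.1 and 29.5. Library pairs shared 0 to 13 cell barcodes. *Xist* was at 1274 to 1468 CPM in swap replicate 1, *tetOP2* and *gg8tTA* and at 0.293 to 0.584 CPM in the other libraries, so sex differed within the swap pair. Mature OSNs also split by replicate number. A cluster led by *S100a5* held 93.3% and 84.0% of them in swap replicate 1 and control 1 and 4.73% and 5.18% in swap replicate 2 and control 2. Another cluster, also led by *S100a5*, had the opposite split, with 1.12% and 6.94% against 40.8% and 61.8%. The part of sex, clustering and genotype label in the swap comparisons below was not tested.

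The genes lie on separate chromosomes of GRCm38 and are all protein coding in its GENCODE annotation. *Nqo1* is at chr8:107388225-107403206 on the minus strand, *Acsm4* at chr7:119690026-119714565 on the plus strand, *Cd55* at chr1:130439027-130462744 on the minus strand, *Socs2* at chr10:95385362-95417180 on the minus strand and *Umodl1* at chr17:30954640-31010710 on the plus strand. The 250 bases before the RefSeq start (GRCm38.p6) are shown for *Nqo1*, *Acsm4* and *Cd55*. Relative to their shares, the first pair were found in the same OSNs more often than either was with *Cd55*. They are chr8:107403206-107403455 (minus strand), chr7:119689776-119690025 (plus strand) and chr1:130462745-130462994 (minus strand). Capitals mark the core of the Ebf site, CCCNNGGG, a site of factors that act throughout the OSN lineage.
Nqo1: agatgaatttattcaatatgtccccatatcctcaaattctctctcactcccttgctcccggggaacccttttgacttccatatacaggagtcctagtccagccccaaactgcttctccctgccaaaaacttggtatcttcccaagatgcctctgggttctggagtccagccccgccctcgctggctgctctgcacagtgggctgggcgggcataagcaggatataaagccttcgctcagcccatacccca
Acsm4: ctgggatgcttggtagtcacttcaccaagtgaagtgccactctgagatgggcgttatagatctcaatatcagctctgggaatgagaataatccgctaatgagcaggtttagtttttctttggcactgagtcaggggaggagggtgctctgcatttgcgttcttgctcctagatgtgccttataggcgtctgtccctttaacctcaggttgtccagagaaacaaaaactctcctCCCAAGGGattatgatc
Cd55: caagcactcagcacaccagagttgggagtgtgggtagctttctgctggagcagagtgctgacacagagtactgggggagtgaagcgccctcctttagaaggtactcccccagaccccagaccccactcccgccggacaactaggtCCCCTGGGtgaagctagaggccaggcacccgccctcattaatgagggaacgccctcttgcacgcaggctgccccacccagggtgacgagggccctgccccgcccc
*Acsm4* held that core as CCCAAGGG at −17 from the start, *Cd55* as CCCCTGGG at −105 and *Umodl1* as CCCCAGGG at −156. None was found for *Nqo1*, and 11.8% of 32851 RefSeq promoters of the same length held one. The antioxidant response element core TGACNNNGC (10.2% of all promoters) and the homeodomain site TAATTA (4.84%) were searched on both strands and were in none of these windows of *Nqo1*, *Acsm4*, *Cd55* and *Umodl1*. The RefSeq promoter table listed 4 of the 5 genes, without *Socs2*.

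The genes came on at different steps of the neuron lineage. UMIs were summed per library over globose basal cells, neuronal precursors, early immature, late immature and mature OSNs, all named from markers that leave out the 5 genes. *Nqo1* was nearly absent from precursors, at 0 and 4.57 CPM in the 2 swap libraries and 1.98 and 2.24 CPM in the controls. It was at 117, 71.5, 69.1 and 69.5 CPM in early immature OSNs of swap replicates 1 and 2 and controls 1 and 2. In late immature OSNs it reached 588, 496, 501 and 511 CPM. Every library thus rose at both steps, and the stages did not overlap. The rise was 4.92 on the log2 scale from precursors to early immature OSNs (SE 0.30, edgeR quasi-likelihood test, adjusted p = 6.9e-11) and 2.76 from early to late immature OSNs (SE 0.09, edgeR, adjusted p = 9.6e-09). SE here and below is the log2 difference divided by the square root of the F statistic of the test. It comes out too small where few UMIs were counted, as in precursors with 0 to 3 *Nqo1* UMIs per library. From late immature to mature OSNs the difference was 0.30 (SE 0.07, edgeR, adjusted p = 0.0175), under the fold of 0.58 required for a call. Within the early immature class a *Prph*-led cluster held *Nqo1* at 37.6 CPM ± 14.1 (SD, n = 4) and a *Stk32a*-led cluster at 174 ± 45.05 (SD, n = 4).

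*Umodl1* came on 1 stage later. It was at or under 16.8 CPM on average in precursors, early immature OSNs and an unnamed cluster led by *Tex15* and *Crabp1*, and at 286 CPM ± 32.4 (SD, n = 4) in late immature OSNs. The step from early to late immature OSNs was 5.42 on the log2 scale (SE 0.11, edgeR, adjusted p = 1.1e-09). It rose again by 1.43 (SE 0.08, edgeR, adjusted p = 7.0e-05) to 737 CPM ± 85.4 (SD, n = 4) in mature OSNs. *Umodl1* was therefore a gene of the last stages in all 4 libraries.

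*Acsm4* was already present before the neuron lineage proper, at 103 CPM ± 50.3 (SD, n = 4) in globose basal cells, the dividing progenitors of OSNs. It was at 36.4 ± 36.2 (SD, n = 4) in precursors and 16.9 CPM on average in the *Prph*-led early immature cluster. The *Stk32a*-led early immature cluster held it at 82.7 ± 47.8 (SD, n = 4). In late immature OSNs it stood at 247 and 123 CPM in swap libraries and 158 and 142 in control ones, a rise of 2.15 on the log2 scale from the early stage (SE 0.11, edgeR, adjusted p = 1.4e-07). Means thus dipped between basal cells and late immature OSNs. Libraries of precursors (7.83 to 86.6 CPM) overlapped those of globose basal cells (65.6 to 176 CPM), and the step between them was not tested. Precursors and early immature OSNs differed by 0.06 (SE 0.22, edgeR, adjusted p = 0.814), and mature OSNs lay 0.37 above late immature ones (SE 0.08, edgeR, adjusted p = 0.0126), under the required fold.

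*Cd55* came on last. It was at 28.6 and 34.1 CPM in late immature OSNs of the swap libraries and 27.4 and 21.2 CPM in those of the controls, against 95.7 and 196 CPM and 80.4 and 173 CPM in mature OSNs. Every library was higher in the mature stage, by 2.23 on the log2 scale (SE 0.22, edgeR, adjusted p = 0.00049). Within the mature class both replicate 2 libraries stood above both replicate 1 libraries, the same split as that of the clusters. The *Tex15* and *Crabp1* cluster, whose stage the markers did not settle, held *Cd55* at 99.9 CPM ± 38.6 (SD, n = 4), above the 12.4 ± 4.5 (SD, n = 4) of the *Stk32a*-led early immature cluster. *Cd55* fell by 0.66 from precursors to early immature OSNs (SE 0.17, edgeR, adjusted p = 0.0030), and late and early immature OSNs differed by 0.38 (SE 0.17, edgeR, adjusted p = 0.0808).

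*Socs2* ran the other way. It was at 732 CPM ± 168 (SD, n = 4) in the *Stk32a*-led early immature cluster and 728 ± 157 in the *Tex15* and *Crabp1* cluster, and was at 413 ± 53.5 in late immature and 152 ± 30.04 in mature OSNs. Late immature OSNs lay below early ones by −0.55 on the log2 scale (SE 0.07, edgeR, adjusted p = 9.0e-05), under the required fold. Early immature OSNs were 0.89 above precursors on the log2 scale (SE 0.11, edgeR, adjusted p = 9.7e-07). Mature OSNs were at 192 and 158 CPM in swap libraries and 132 and 125 CPM in control ones, and fell by 1.38 from late immature OSNs (SE 0.09, edgeR, adjusted p = 0.00012). All 4 libraries dropped at this last step.

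**Figure D1:**
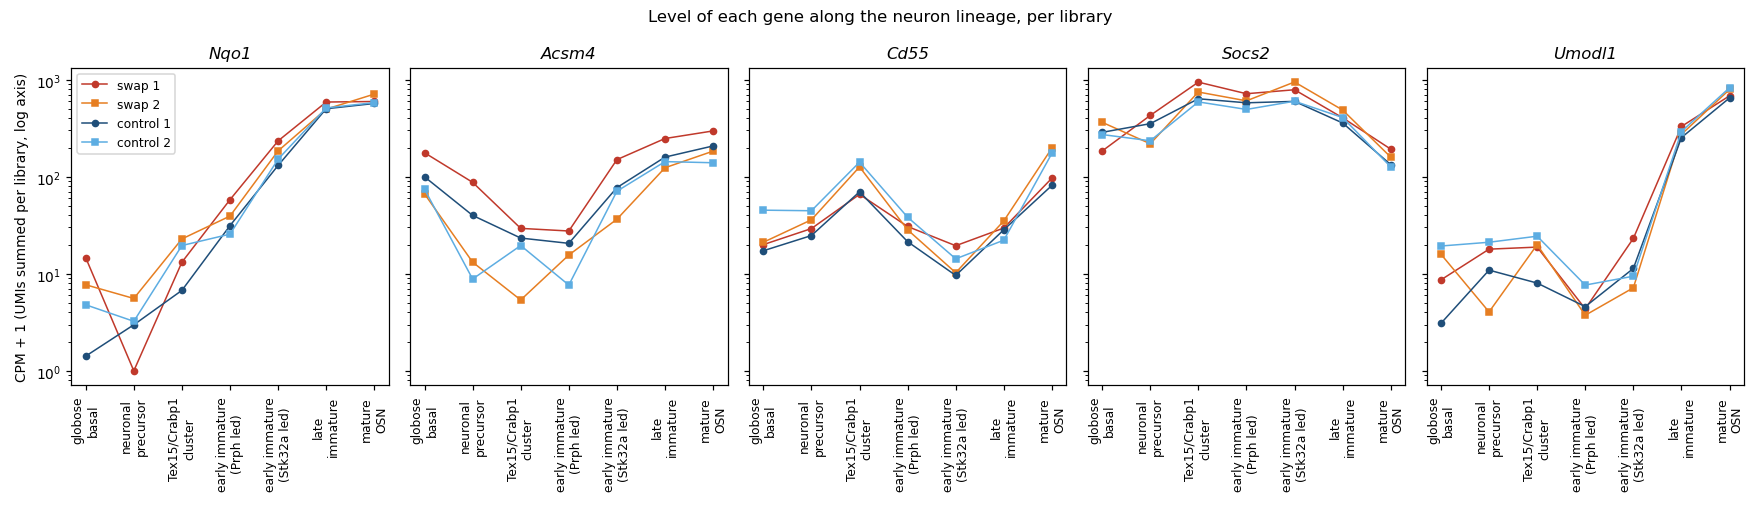
Level of each gene (vertical log axis, CPM + 1 of UMIs summed per library) along 6 stages of the neuron lineage and the unnamed *Tex15* and *Crabp1* cluster, drawn after the precursors without a settled stage (horizontal axis), with 1 line per swap or control library. *Nqo1* and *Umodl1* climb from near 0 in precursors, *Umodl1* only in late immature OSNs, while *Cd55* reaches 80.4 to 196 CPM in mature OSNs and *Socs2* declines to 125 to 192 CPM there.

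Many other genes changed at the same steps. From precursors to early immature OSNs 2 of the 5 genes were called higher and 2 lower, where 43.9% of all genes tested were called, 23.9% higher and 20% lower. From early to late immature OSNs 3 were called higher and 0 lower, where 30.8% of all genes were called, 17% higher and 13.8% lower. From late immature to mature OSNs 2 were called higher (5.33% of all genes) and 1 lower (6.21%), with 11.5% of all genes in either direction. DESeq2 called 3 of 5 at each step, losing *Umodl1* at the first, where it was lower in early immature OSNs by edgeR (fell by 1.02 on the log2 scale, SE 0.31, edgeR, adjusted p = 0.0090, range over alternatives 0.0066 to 0.292). That call was also lost without control replicate 2 and with all 6 libraries.

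Genes of the same pathways were read from the same fits. Of the antioxidant genes tested, 3 rose (*Txnrd1*, *Nfe2l2* and *Nqo1*) and 2 fell (*Prdx1* and *Mgst1*) of 9 from precursors to early immature OSNs. From early to late immature OSNs 5 rose (*Nfe2l2*, *Srxn1*, *Prdx1*, *Gsr* and *Nqo1*) and *Slc7a11*, the cystine transporter, fell, of 14, with a median log2 change of 0.27 against −0.00 over all genes. From late immature to mature OSNs 4 of 13 rose and none fell, and *Nqo1* was not among them. These were *Nfe2l2*, the regulator of the antioxidant response (0.78), *Srxn1* (1.01), *Prdx1* (0.63) and *Hmox1* (1.04). Of 3 complement inhibitors *Cr1l* rose and *Cd55* fell at the first step, *Cr1l* rose again at the second (0.93), and *Cd55* alone was called at the last. Of 6 SOCS genes *Socs2* rose and *Socs3* and *Socs6* fell at the first step, and *Socs5* rose at the second. *Acsm4* and *Umodl1* were the only genes of their lists (medium-chain acyl-CoA synthetases and zona pellucida domain genes) that passed the filter.

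Outside the neurons each gene had its own cell types. Among the named classes *Acsm4* was highest in sustentacular cells, the supporting and detoxifying cells of the epithelium, at 381 and 214 CPM in swap libraries and 437 and 317 in control ones. An unnamed cluster led by *Dcpp1* was higher, at 513 CPM ± 97.5 (SD, n = 4). The sustentacular mean came mostly from 1 cluster. The *Fmo6*-led sustentacular cells held 1293 CPM ± 218 (SD, n = 4) and the *Cyp2g1*-led ones 81.7 ± 56.4 (SD, n = 4). With each cell thinned to 3000 UMIs so that depths match, *Acsm4* was detected in 94.6%, 92.6%, 92.9% and 96.3% of *Fmo6*-led cells of swap replicates 1 and 2 and controls 1 and 2, although *Acsm4* was left out of the clustering. These cells made up 25.2% and 17.2% of sustentacular cells in swap libraries and 23.1% and 23.4% in control ones. A *Sult1c1*-led sustentacular cluster of the *tetOP2* and *gg8tTA* libraries held 863 CPM ± 17.7 (SD, n = 2), against 28.5 and 9.47 CPM in the other sustentacular clusters there. Sustentacular cells choose no OR, so *Acsm4* also separated cells of this epithelium that have none.

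*Nqo1* followed the same sustentacular split at a lower level, with 105 CPM ± 29.5 (SD, n = 4) in *Fmo6*-led cells against 17.01 in *Cyp2g1*-led and 13.8 in *Chil4*-led ones. Horizontal basal cells, the reserve stem cells, showed it again. Their *Krt17*-led cluster held *Nqo1* at 55.5 CPM ± 13.05 (SD, n = 4) and *Acsm4* at 111 ± 61.8 (SD, n = 4), and their *Krt15*-led cluster 5.28 ± 3.1 and 4.22 ± 4.8. *Cd55* had the opposite order, at 22.3 to 43.6 CPM per library in *Krt17*-led and 116 to 304 CPM in *Krt15*-led cells. These differences among clusters were not tested, and no library overlapped between the clusters for any of the 3 genes. Ensheathing glia, which wrap OSN axons, held *Nqo1* at 73.6 ± 27.3 (SD, n = 4).

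Among named classes *Cd55* was highest in ciliated respiratory cells, at 362 CPM ± 79.6 (SD, n = 3), above its 136 ± 57.0 (SD, n = 4) in mature OSNs, and stood at 90.3 CPM on average in *Ascl3* microvillar cells. An unnamed *Reg3g*-led cluster held it at 191 ± 33.8 (SD, n = 4). *Socs2* was spread over the epithelium, at 280 ± 49.3 in sustentacular cells, 276 ± 73.7 in globose basal cells and 206 ± 52.6 in ensheathing glia (SD, n = 4 each). Sustentacular and globose basal cells lay within 1 SD of each other, and the libraries of glia (148 to 268 CPM) overlapped those of mature OSNs (125 to 192 CPM). *Umodl1* and *Nqo1* were low outside the neuron lineage, with no named class above 76.8 ± 68.8 and 75.3 ± 120 CPM (SD, n = 3, *Trpm5* microvillar cells for both). As background, cells of the B lineage thinned to 3000 UMIs showed *Nqo1* in 0% to 3.23%, *Acsm4* in 0% to 6.67% and *Umodl1* in 0% to 8.89% of cells per library, from median depths of 2986 to 6754 UMIs, and fibroblasts showed *Cd55* in 0% to 0.794%.

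**Figure D2:**
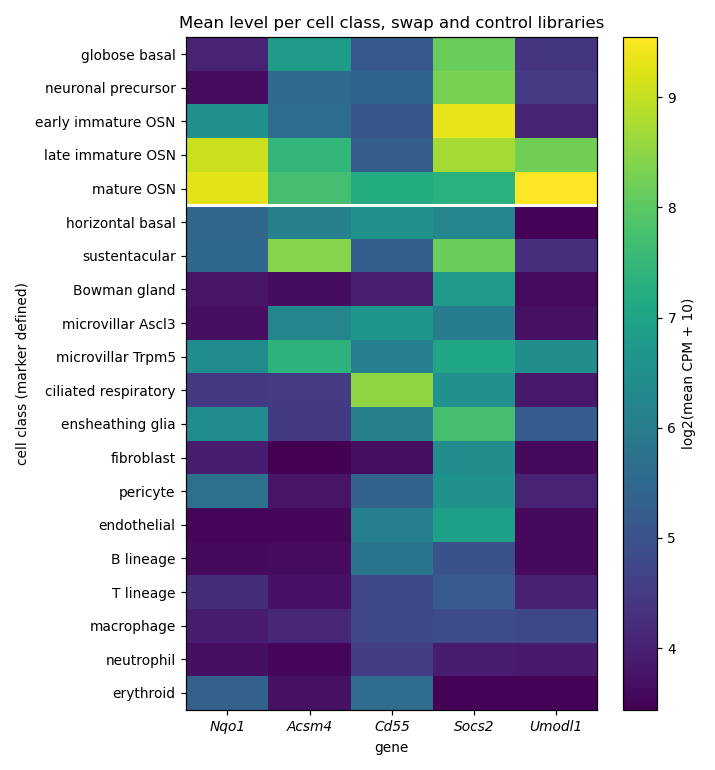
Mean level over the swap and control libraries as log2(mean CPM + 10) (colour) of each gene (columns) in the marker-defined cell classes (rows), with the neuron lineage above the white line. *Umodl1* is bright in late immature and mature OSNs, *Acsm4* also in sustentacular cells (337 CPM) and *Cd55* in ciliated respiratory cells (362 CPM).

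Next, the label of a dorsal gene was checked against the OR that each mature OSN had chosen, taken as the OR with the most UMIs. ORs were placed by *Ncam2*, *Nrp2*, *Nfia*, *Nfib* and *Nfix* (ventral) minus *Robo2* and *Sema3f* (dorsal) in cells of other libraries without the swap, never by the 5 genes, and cut into 4 equal position groups from dorsal to ventral. A position was had for 151 and 247 mature OSNs of the swap libraries, 314 and 317 of the controls, 417 of *tetOP2* and 223 of *gg8tTA*. Shares below are of cells thinned to 3000 UMIs with at least 1 UMI of the gene.

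*Nqo1* was detected in 80.4% and 84.4% of control cells of the most dorsal group, 44.3% and 39.6% of the next, 3.41% and 5% of the group after it and 3.19% and 0% of the most ventral. The share of 0 was 0 of 91 cells, which allows up to 3.30%. *Acsm4* went the same way, from 76.8% and 65.6% to 3.19% and 0%. The last 2 groups were thus at 0% to 5% for both genes, close to the background in the B lineage. *Socs2* went from 53.6% and 40.6% in the most dorsal group to 11.7% and 9.89% in the most ventral one, a decline without an empty end.

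*Cd55* and *Umodl1* bore the label less well. *Cd55* was in 17.9% and 28.1% of the most dorsal control cells, 23.0% and 20.8% of the next, 10.2% and 12% of the third group and 7.45% and 4.40% of the most ventral. *Umodl1* was in 82.1% and 87.5% of the most dorsal and 89.4% and 81.3% of the most ventral control cells. In control 1 its share was higher at the ventral end and in control 2 lower, so *Umodl1* was a gene of nearly all mature OSNs in these shares, not of dorsal ones.

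Class I neurons, defined from the OR names alone, separated the genes in the same manner. *Nqo1* was in 88.8% and 84.4% of class I neurons of the controls and in 24.9% and 26.6% of class II neurons. *Acsm4* was in 78.7% and 69.7% against 19.3% and 20.1%, and *Socs2* in 53.9% and 54.1% against 24.2% and 21.3%. *Cd55* was in 23.6% and 31.2% against 11.6% and 14.6%. For *Umodl1* the controls disagreed again, with 69.7% and 89.9% of class I and 85.7% and 87.2% of class II neurons. The other 4 genes were thus higher in class I neurons of both controls.

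**Figure D3:**
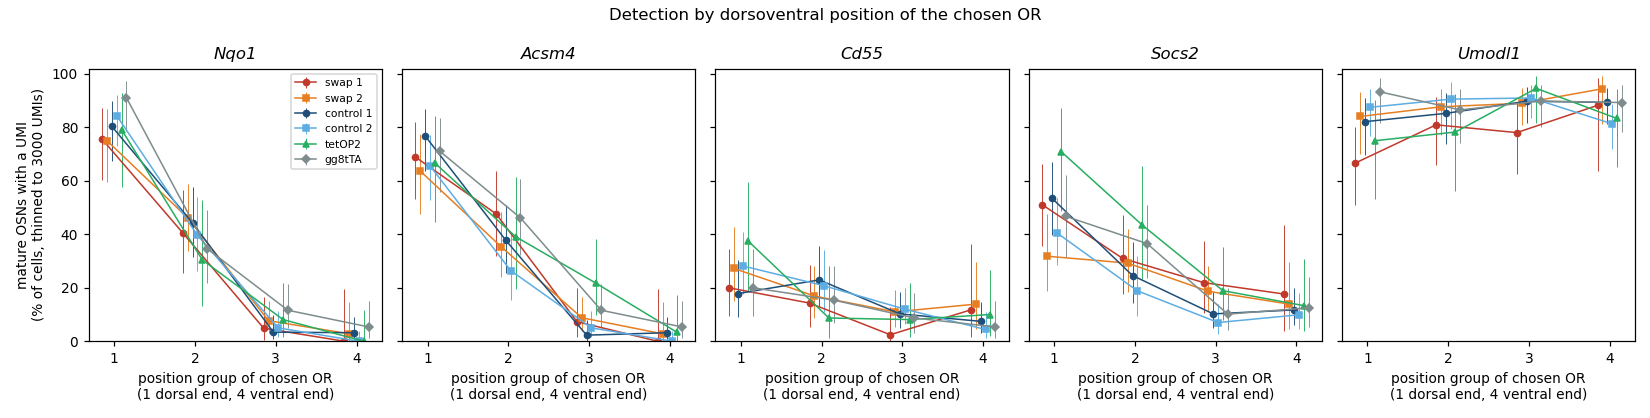
Share of mature OSNs with a UMI of each gene (vertical axis, % of cells thinned to 3000 UMIs) by position group of the chosen OR (horizontal axis, 1 most dorsal to 4 most ventral), with 95% Clopper-Pearson intervals that cover counting error only; *tetOP2* is drawn without its *Olfr17* cells. *Nqo1* and *Acsm4* fall steeply in all 6 libraries, with *Nqo1* between 75% and 91.1% in group 1 and at most 5.36% in group 4. *Umodl1* shows no such fall, and its mean over the swap libraries is 75.4% in group 1 and 91.3% in group 4.

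The swap libraries were not used to choose the genes, so dorsal and ventral neurons were tested there. Ventral ORs were the 25% placed most ventrally, and 18 of 151 and 36 of 247 placed swap neurons had one, against 101 of 314 and 94 of 317 in the controls. *Nqo1* was at 632 CPM in dorsal and 4.97 CPM (1 UMI) in ventral neurons of swap replicate 1, and at 797 and 24.99 CPM (13 UMIs) in those of swap replicate 2. *Acsm4* was at 297 and 14.9 CPM in the first and 161 and 17.3 CPM in the second. Dorsal neurons thus held more of both in each library, by factors far above the distance between libraries. Ventral neurons were lower by −5.28 on the log2 scale for *Nqo1* (SE 0.20, edgeR, adjusted p = 5.6e-44, 2.0e-101 to 4.3e-06 over the alternatives) and by −3.57 for *Acsm4* (SE 0.27, edgeR, adjusted p = 4.6e-21, 9.3e-34 to 3.8e-07). The tests rest on 4 sums with 1 residual degree of freedom, so the p-values lean on dispersion shared over all genes tested. Ventral neurons held 1 and 13 UMIs of *Nqo1* and 3 and 9 of *Acsm4*, too few for such small SEs. Without 1 of the swap libraries the values ran from −6.94 to −4.99 and from −4.29 to −3.20.

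*Cd55* was at 120 and 24.8 CPM in dorsal and ventral neurons of swap replicate 1 and at 179 and 133 CPM in those of replicate 2, with a log2 difference of −0.70 (SE 0.19, edgeR, adjusted p = 0.0205, 7.9e-14 to 0.9999 over the alternatives). Without replicate 1 the difference was −0.43 and without replicate 2 it was −2.25. As shares of thinned cells *Cd55* was nearly level, in 12.5% of dorsal and 11.8% of ventral neurons of swap replicate 1. In swap replicate 2 it was in 16.5% and 13.9%, against 16.2% and 7.37% in control 1 and 18.9% and 4.40% in control 2. *Socs2* was at 166 and 94.4 CPM and at 144 and 80.7 CPM, with −0.82 (SE 0.19, edgeR, adjusted p = 0.0032, 1.1e-07 to 0.9999). *Umodl1* was at 690 and 601 CPM and at 857 and 757 CPM, with −0.18 (SE 0.09, edgeR, adjusted p = 0.494, 0.0546 to 0.9999). In all, 4 of the 5 genes were called lower in ventral swap neurons, and 0 higher, where 0.441% of 7942 genes were called lower, 0.869% higher and 1.31% in either direction. DESeq2 called 2 of the 5, *Nqo1* and *Acsm4*. The calls of *Cd55* and *Socs2* were lost with DESeq2, and 1 of them each with a chosen OR of at least 3 UMIs (*Cd55*, −0.59) and with the third of ORs called ventral (*Socs2*, −0.51).

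Among the pathway genes, *Socs3* was higher in ventral swap neurons (2.10 on the log2 scale) and *Socs2* lower, of 5 SOCS genes tested. *Cd59a*, another complement inhibitor on the membrane, was higher (1.15) where *Cd55* was lower, of 3. *Nqo1* alone was called among 9 antioxidant genes.

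Swap and control neurons were then compared within position groups. In the most dorsal group *Nqo1* was in 75.6% and 75% of swap neurons, or 75.3% ± 0.39 (SD, n = 2), against 82.4% ± 2.84 in controls, a difference of −7.09 points. In the most ventral group it was in 0% and 2.78% of swap neurons, where 0 of 17 cells allows up to 17.6%. *Acsm4* was in 68.9% and 63.6% of the most dorsal and 0% and 2.78% of the most ventral swap neurons. Over all dorsal neurons *Nqo1* was in 41.4% and 35% of swap and 36.8% and 36.9% of control cells, which overlapped (difference 1.39 points, exact two-sided permutation p = 1). With 2 libraries against 2 no exact permutation test can go below p = 0.33, the value for the most dorsal group.

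Over all mature OSNs the swap libraries had more cells with 3 of the genes. *Nqo1* was in 39.5% and 38.6% of swap against 34.1% and 33.9% of control neurons, a difference of 5.05 points. *Acsm4* was in 41.4% and 31.0% against 27.9% and 26.2%, a difference of 9.10 points, and *Socs2* in 37.4% and 31.2% against 28.5% and 25.2%, a difference of 7.47 points. The groups did not overlap for these genes, and each gave the smallest p this design allows (exact two-sided permutation p = 0.33, 0.556 adjusted over the 5 genes). *Cd55* was in 14.5% ± 4.29 and 14.9% ± 2.77 (SD, n = 2 each), and *Umodl1* in 82.8% ± 3.45 and 85.8% ± 2.81. Among class I neurons *Nqo1* was in 78.3% ± 3.96 of swap and 86.6% ± 3.08 of control cells (SD, n = 2 each, exact permutation p = 0.33, 1 adjusted over the 5 genes), while class II neurons had it in 31.2% and 33.9% against 24.9% and 26.6%. With so few libraries none of these differences could pass the threshold.

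The shares were also compared between neurons of the same ORs. Library pairs of the same number were set side by side over the ORs found in both, each OR given the same weight in both, which left 145 ORs with 230 and 266 cells in pair 1 and 237 ORs with 562 and 488 cells in pair 2. The swap minus control difference for *Nqo1* went from 5.40 and 4.69 points over all cells to −4.65 and −2.06 points over matched ORs. That for *Acsm4* went from 13.4 and 4.75 to 1.91 and −1.52 points, and that for *Socs2* from 8.88 and 6.06 to 4.81 and 4.40 points. Over matched ORs *Nqo1* was thus lower in both swap libraries and *Socs2* higher in both. The matched differences have no test, with 1 value per pair.

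Summed levels of mature OSNs were compared between swap and control as well. *Nqo1* was at 595 and 710 CPM in swap and 568 and 579 CPM in control neurons, *Acsm4* at 296 and 183 against 207 and 138, and *Cd55* at 95.7 and 196 against 80.4 and 173. *Umodl1* was at 682 and 792 against 648 and 825 CPM. None of the 5 was called between swap and control, where 0.232% of 12081 genes were called in mature OSNs, 0.0662% higher and 0.166% lower in swap. The log2 differences ran from −0.01 (SE 0.23, *Umodl1*) to 0.45 (SE 0.35, *Acsm4*), each with an adjusted p of 0.9998 by edgeR. By edgeR 0 of 5 had an unadjusted p under 0.05, and DESeq2 called 0. Sustentacular cells of the swap libraries were also lower in *Cbx1*, by −5.51 on the log2 scale (SE 0.48, edgeR, adjusted p = 0.0083). *Cbx5* differed there by 0.45 (SE 0.31) and was not called. In sustentacular cells *Acsm4* differed by −0.34 (SE 0.38), and again 0 of 5 were called by edgeR or DESeq2 and 0 had an unadjusted p under 0.05, where 0.147% of all genes were called, 0.131% higher and 0.0164% lower in swap. None of the pathway genes tested was called in either cell type (edgeR and DESeq2, 0 at an unadjusted p under 0.05). In simulated counts the mature OSN fit recovered 0% of genes changed by 1 on the log2 scale and 8% of those changed by 2. The sustentacular fit recovered 8% and 70%. Even *Cbx1*, at −5.56 on the log2 scale, was not called in mature OSNs (edgeR, adjusted p = 0.0593). The lack of calls thus does not exclude changes of such sizes.

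Neurons of single ORs showed how the genes split. Over the swap and control libraries 55 ORs had at least 10 mature OSNs, 702 cells in all, and shares of these cells are given as a description, since cells of an OR come from up to 4 libraries. *Nqo1* was in at least 70% of cells for 17 ORs and in none for 19, with 6 between 30% and 70% and 13 above 0% and below 30%. *Acsm4* was in at least 70% for 12 and in none for 19. Across ORs the share went with the mean position score of the same cells with r = −0.89 for *Nqo1*, −0.86 for *Acsm4*, −0.64 for *Socs2*, −0.26 for *Cd55* and 0.13 for *Umodl1* (n = 55 ORs, which share libraries and depth). Detection of *Nqo1* and *Acsm4* thus differed strongly between neurons of different ORs.

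*Cd55* differed by OR as well, along other lines. It was in none of the cells for 34 ORs and in at least 70% for 7, which were *Olfr666* (100%), *Olfr523* (100%), *Olfr692* (91.7%), *Olfr821* (91.7%), *Olfr769* (84.2%), *Olfr1440* (75%) and *Olfr1271* (72.7%). *Olfr666* and *Olfr692* are class I ORs and had *Nqo1* in every cell. *Olfr1440* and *Olfr1271* had *Nqo1* in 0% of cells and lay near the middle of the axis (mean position scores of 0.27 and 0.19 on a range up to 1.26), and their *Cd55* levels were 1400 and 556 CPM. The class I OR *Olfr594* had *Nqo1* and *Acsm4* in 100% of cells and *Cd55* in 0%. The highest *Cd55* share among ORs with a score above 0.5 was 27.3% (*Olfr728*), so the ORs high in *Cd55* lay at the dorsal end and in the middle. *Olfr613* (12 cells) stood apart from the other class I ORs, with *Acsm4* in 83.3%, *Nqo1* in 8.33% and *Umodl1* in 0% of cells. These ORs are named because their shares were at the ends of the range.

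**Figure D4:**
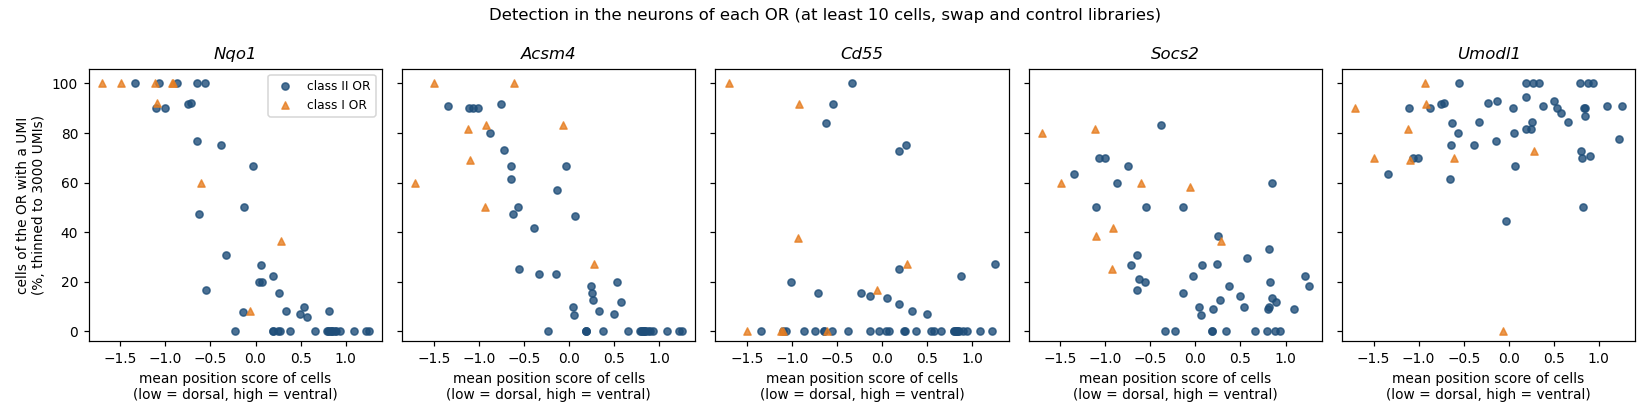
Share of the cells of each OR with a UMI of each gene (vertical axis, % of cells thinned to 3000 UMIs) against the mean position score of those cells (horizontal axis, no unit, low is dorsal), for the 55 ORs with at least 10 cells; triangles are class I ORs. *Nqo1* and *Acsm4* step from high to 0 along the axis, *Cd55* is at 0 for 34 ORs with 7 at or above 70% from the dorsal end to the middle, and *Umodl1* is high for 48 ORs.

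Whether these OR-bound shares held in other mice was read by setting the ORs on control shares alone (at least 5 control cells) and looking elsewhere. ORs with *Nqo1* in at least 70% of control cells had it in 11 of 13 cells of swap replicate 1, 24 of 29 of swap replicate 2, 14 of 15 of *gg8tTA* and 5 of 5 of *tetOP2*. ORs without it in controls had it in 0 of 31, 2 of 65, 2 of 60 and 0 of 23 cells. For *Cd55* the 5 high ORs had it in 3 of 4 cells of swap replicate 1, 11 of 17 of swap replicate 2 and 4 of 6 of *gg8tTA*, and the 55 ORs without it in 0 of 37, 1 of 71 and 2 of 61. In *tetOP2* these sets gave 0 of 1 and 5 of 326 cells. The 26 ORs between had *Cd55* in 26.8% and 30.8% of control cells, in 6.25% and 9.09% of swap cells (1 of 16 and 4 of 44), in 16% of *gg8tTA* cells and in 0 of 7 *tetOP2* cells. The sets at the ends thus kept their order in the swap and *gg8tTA* libraries. The ORs between were lower there than in the controls, a difference that was not tested. Control shares were used to choose this set, so they are not independent of the choice, and the difference cannot be read as a change. *Socs2* was less sharply bound, with 5 of 25 and 5 of 51 cells in the swap libraries among 31 ORs at 0 in the controls.

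Genes with the most similar levels over the 55 ORs were, for *Nqo1*, *Acsm4* (r = 0.89), *Nob1* (0.82) and *Cartpt* (0.81), on log2(CPM + 10) of UMIs summed per OR. For *Acsm4* they were *Nqo1* (0.89), *Nob1* (0.80) and *Cartpt* (0.77). *Cd55* had other neighbours, *Tppp3* (0.90), *Mboat1* (0.82) and *Gm7534* (0.75), and its r with *Nqo1* was 0.10. *Socs2* went most with *Acsm4* (0.68), *2810001G20Rik* (0.65) and *Ppa1* (0.63). *Umodl1* went with *A730046J19Rik* (0.88) and *Ptp4a3* (0.76), and its r with *Nqo1* was 0.13.

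In the *tetOP2* library the chosen OR was set by a transgene in many cells. *Olfr17* was the chosen OR of 303 of 491 neurons, 61.7% (95% Clopper-Pearson 57.2% to 66.0%), against 0 to 4 cells in each other library. *Olfr17* lies in the third position group, 1 step from the ventral end, and in the 11 neurons of the other libraries that chose it *Nqo1* was found in 1, *Acsm4* in 2, *Cd55* in 0, *Socs2* in 1 and *Umodl1* in 9 cells. With 1 library per genotype there is no test, and intervals are exact binomial ones that cover counting error only.

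Within the *tetOP2* library the share of *Nqo1* in *Olfr17* neurons was within counting error of that in neurons with another OR. *Nqo1* was in 26.4% (21.5% to 31.7%) of *tetOP2* neurons that chose *Olfr17* and 28.7% (22.4% to 35.8%) of those that chose another OR. In *gg8tTA* neurons it was in 36.4% (32.1% to 40.9%), an interval above that of *Olfr17* neurons. Its level was 571 CPM in *Olfr17* neurons, 581 CPM in the other *tetOP2* neurons and 957 CPM in *gg8tTA* neurons. *Acsm4* was in 23.8% (19.1% to 29.0%) of *Olfr17* neurons, 31.4% (24.8% to 38.5%) of the others and 39.1% (34.7% to 43.6%) of *gg8tTA* neurons. Its level was 152 CPM (139 to 166) in *Olfr17* neurons and 206 CPM (187 to 225) in the other *tetOP2* neurons. Neurons of the third position group with another OR had *Nqo1* in 8.11% in the *tetOP2* library (3 of 37 cells). In *gg8tTA* they had it in 11.6% (8 of 69 cells, the *Olfr17* cell left out). This group was at 3.41% and 5% in the controls and 4.88% and 7.69% in the swap libraries. All these shares lay below that in *Olfr17* neurons. For *Acsm4* this group was at 21.6% (9.83% to 38.2%, 8 of 37 cells) in the same library, an interval that holds the share of *Olfr17* neurons, and at 11.6% in *gg8tTA*.

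*Cd55* and *Socs2* were lower in *Olfr17* neurons than over all neurons with another OR. *Cd55* was in 5 of 303 of them, 1.65% (0.538% to 3.81%), against 16.5% (11.5% to 22.6%) of neurons with another OR and 13.6% of *gg8tTA* neurons, and its level was 14.2 against 93.9 CPM. *Socs2* was in 14.9% (11.0% to 19.4%) against 31.4% (24.8% to 38.5%), with 74.1 against 168 CPM. Neurons of the third position group with another OR had *Cd55* in 8.11% in the same library (1.70% to 21.9%, 3 of 37 cells). They had *Socs2* in 18.9% (7.96% to 35.2%, 7 of 37 cells). Both intervals overlapped those of *Olfr17* neurons. In *gg8tTA* this group was at 8.70% for *Cd55* and 10.1% for *Socs2*. *Umodl1* was in 91.4% (87.7% to 94.3%) against 84.6% (78.6% to 89.4%), with 923 against 728 CPM. Median depths were 10785 and 11941.5 UMIs, and without thinning *Cd55* was in 12.5% and 28.7%. Among the 92 other neurons with no *Olfr17* UMI at all, *Nqo1* was in 28.3% and *Cd55* in 20.7%.

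The *Olfr17* neurons were then split by detection of *Nqo1*. Of 80 *Olfr17* neurons with *Nqo1*, 68.8% had *Acsm4* and 32.5% *Socs2*, against 7.62% and 8.52% of the 223 without it. The 5 ventral markers went the other way, with *Nfix* in 18.8% against 75.8%, *Nfib* in 2.5% against 29.1%, *Nrp2* in 2.5% against 15.2%, *Ncam2* in 1.25% against 13% and *Nfia* in 0% against 8.07%. These are transcription factors and adhesion or guidance molecules that are higher in ventral OSNs. The 2 dorsal markers differed little, with *Robo2* in 15% (7.998% to 24.7%) against 10.8% (7.02% to 15.6%) and *Sema3f* in 3.75% against 2.69%. *Cd55* was in 1.25% and 1.79% of the same cells. Among neurons of the same library with another OR, *Acsm4* was in 79.6% of the 54 with *Nqo1* and 11.9% of the 134 without, and *Nfix* in 20.4% and 71.6%. There *Robo2* was in 31.5% and 14.2%, *Socs2* in 64.8% and 17.9% and *Cd55* in 18.5% and 15.7%, so *Socs2* and *Cd55* were found less often in *Olfr17* neurons with *Nqo1* than in these.

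**Figure D5:**
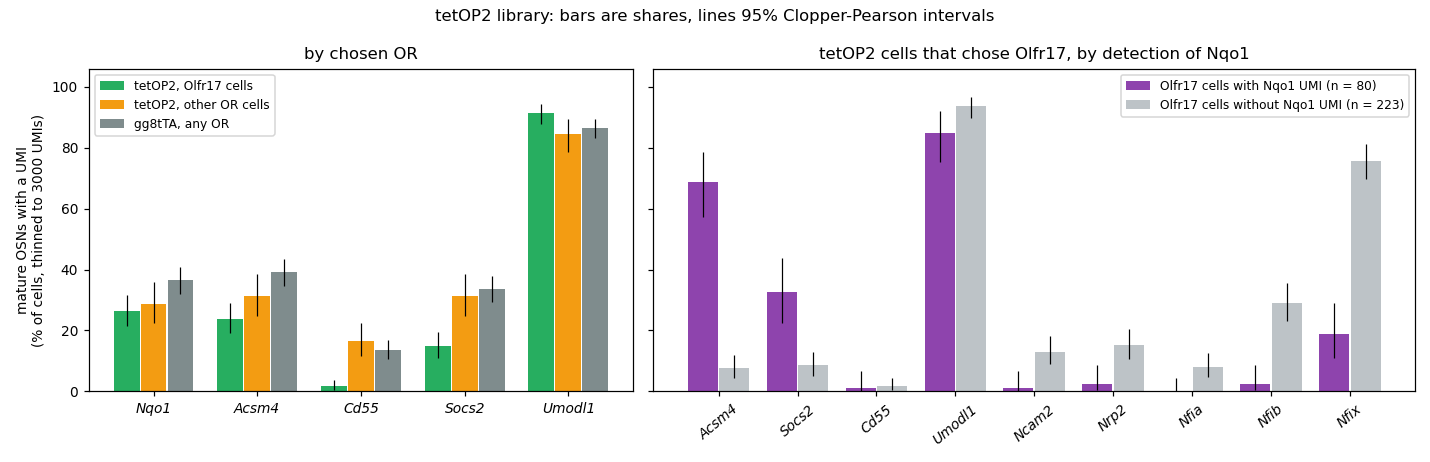
Left, share of mature OSNs with a UMI of each gene (vertical axis, % of cells thinned to 3000 UMIs) in *tetOP2* neurons that chose *Olfr17*, *tetOP2* neurons with another OR and *gg8tTA* neurons; right, *Olfr17* neurons with (n = 80) and without (n = 223) *Nqo1*, for the other genes and 5 ventral markers. Lines are 95% Clopper-Pearson intervals. In *tetOP2* neurons that chose *Olfr17* or another OR, *Nqo1* is at 26.4% and 28.7% and *Cd55* at 1.65% and 16.5%. *Nfix* is at 18.8% and 75.8% in *Olfr17* neurons with and without *Nqo1*.

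Last, detection of the genes in the same cell was compared with the product of their shares, in each of the 6 libraries. *Nqo1* and *Acsm4* were found together 1.90 to 2.71 times as often as that product, in 22.8% of control 2 neurons against 8.90% and in 31.1% of swap replicate 1 neurons against 16.3%. *Nqo1* and *Socs2* were at 1.41 to 2.14 times, and *Acsm4* and *Socs2* at 1.30 to 2.03 times. Over all mature OSNs these 3 genes thus met more often than the product of their shares in every library. Within class I neurons, of which 54.3% to 80.9% per library had both, *Nqo1* and *Acsm4* were at 1.01 to 1.07 times. *Nqo1* and *Socs2* were at 0.959 to 1.12 times within class I neurons, and *Acsm4* and *Socs2* at 1.03 to 1.15. *Nqo1* was in 75.5% to 92.6% and *Acsm4* in 69.1% to 85.3% of class I neurons per library. Shares this high leave the ratio little room to rise, so the class I ratios cannot be set against those over all mature OSNs. *Cd55* and *Nqo1* were at 0.989 to 1.41 times, and within class I neurons at 1.03 to 1.21 times. *Cd55* was at 0.785 to 1.29 times with *Acsm4* and 0.768 to 1.20 with *Socs2*, and at 0.908 to 1.05 with *Acsm4* within class I neurons. Within dorsal neurons *Nqo1* and *Acsm4* were at 1.79 to 2.64 times, *Nqo1* and *Socs2* at 1.29 to 2.25 and *Acsm4* and *Socs2* at 1.37 to 2.01. *Cd55* was there at 0.989 to 1.49 times with *Nqo1* and 0.924 to 1.75 with *Acsm4*. *Umodl1* was at 0.897 to 1.01 times with *Nqo1*, 0.893 to 1.01 with *Acsm4* and 0.909 to 0.971 with *Socs2*, and at 1.01 to 1.12 times with *Cd55*.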

How the data were processed

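Fresh main olfactory epithelium was dissociated and sequenced by the authors as Chromium v3 libraries. The deposited UMI counts per gene and cell were made by the authors with Cell Ranger, introns included, without normalization (build mm10 per the processing notes). Part of the genotype labels and of the named genes is not reported here. The members and gene lists were chosen with earlier results of these data known.

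A cell needed 1000 UMIs and 500 genes to be kept (2563 to 5091 cells per library), and predicted doublets (0.8% per 1000 cells) were left out. Swap and control libraries were clustered together (Leiden, leidenalg 0.10.2, resolution 1.5, 30 principal components, 15 neighbours, 2000 variable genes), the *tetOP2* and *gg8tTA* libraries separately, without OR genes and the 5 members, and clusters were named from fixed markers. The chosen OR was that with the most UMIs, with ties left out. OR positions were averaged over at least 3 cells, for a swap or control library from the control of the other number and *gg8tTA*, for *gg8tTA* from both controls and for *tetOP2* from all 3. Class I ORs were those with an MOR number up to 42 (124 of 1116 OR genes, of which 1082 have a number).

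Counts were summed per library and cell class and tested with edgeR 4.0.16 (TMM, filterByExpr, quasi-likelihood test) in R 4.3.3 with Benjamini-Hochberg adjustment over all genes tested, with library as a block in comparisons between stages or positions. Calls needed an adjusted p under 0.05 and a log2 fold change over 0.58. DESeq2 1.42.0 was an alternative. Shares were compared with exact permutation tests over libraries (scipy 1.17.1), and intervals are at 95%. Scripts were tested on simulated data. The methods give biological replicates without saying more, so p-values refer to these libraries only. With few libraries the edgeR p-values lean on dispersion shared over all genes tested, not only on the spread of each gene among libraries. Named genes are the members, the position markers, the 3 genes most like each member over ORs (at least 10 cells, mean of at least 20 CPM) and the genes of 5 pathway lists. Results were recomputed with DESeq2, without the filter, at another thinning (1500 UMIs or none), with an *Omp* gate, with doublets, with other OR minima, with a replicate block and without each replicate.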

Additional observations from a re-analysis of the deposited data

How the results depend on the processing

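Between swap and control mature OSNs 28 genes were called, and 174 with DESeq2, 111 without the filter, 0 with the replicate block and 0 with the *Omp* gate (edgeR, 705 and 364 genes at an unadjusted p under 0.05), and 145 to 305 without 1 replicate. In sustentacular cells the 18 calls became 69 with DESeq2, 48 with the replicate block and 123 to 210 without 1 replicate. Same-numbered libraries deviated together (r = 0.265 and 0.463), and the mature clusters also split by number, but the labels give the 2 pairs nothing in common beyond the number, and under the replicate block none of the 5 genes changed its call. Ventral against dorsal swap neurons gave 104 calls, 6 with DESeq2 and 172 with all 4 libraries. The log2 differences of the 5 genes between swap and control, none of them called, changed sign in places. *Umodl1* in mature OSNs was at 0.0037 with doublets kept and at −0.13 to 0.14 without 1 replicate, and *Cd55* at −0.41 to 0.82. Without 1 replicate, sustentacular *Nqo1* ran from −0.15 to 0.42, *Acsm4* from −0.86 to 0.059, *Socs2* from −0.42 to 0.083 and *Umodl1* from −0.52 to 1.18, and *Acsm4* from precursors to early immature OSNs from −0.16 to 0.38.

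Differences of shares, in points, moved with the thinning. Swap minus control over all mature OSNs was 0.644 for *Cd55* at 1500 UMIs and −3.46 to 2.61 without 1 replicate. Over dorsal neurons it was −0.608 for *Nqo1* with the third of ORs called ventral and −1.82 to 4.59 without 1 replicate, −1.22 to 11.5 for *Acsm4* without 1 replicate and 0.674 for *Umodl1* at 1500 UMIs. Dorsal minus ventral in the swap libraries was 21.3 for *Acsm4*, 9.50 for *Cd55*, 7.19 for *Socs2* and 8.36 for *Umodl1* at 1500 UMIs, and 4.15, 1.26 and 0.424 for the last 3 without thinning. For *Cd55* it was 4.62 with a chosen OR of at least 3 UMIs and 8.61 with the third of ORs called ventral, where *Umodl1* was at −0.749. In *tetOP2*, *Olfr17* minus other ORs was 1.48 for *Nqo1* and −7.39 for *Cd55* at 1500 UMIs, and −2.38 for *Acsm4*, −25.5 for *Socs2* and 1.80 for *Umodl1* without thinning. Without thinning the co-detection ratio was 1.96 for *Nqo1* and *Acsm4*, 1.33 for *Nqo1* and *Socs2*, 1.31 for *Acsm4* and *Socs2*, 1.00 for *Acsm4* and *Umodl1*, 1.01 for *Cd55* and *Umodl1* and 0.999 for *Socs2* and *Umodl1*. At 1500 UMIs it was 0.765 for *Cd55* and *Socs2* and 1.13 for *Cd55* and *Umodl1*. The cause of these moves was not tested. The steps to late immature and to mature OSNs were not run with all 6 libraries, because late immature OSNs were not named in *tetOP2* and *gg8tTA*. In the swap libraries 18 and 36 ventral neurons limited the ventral shares.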
